A study of Mus musculus with 5 samples.

Results

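The transmembrane collagens Col25a1, Col13a1 and Col23a1 were examined in nuclei of mouse hindlimb skeletal muscle, as 3 of the 32285 genes counted. They were named as membrane collagens of motor innervation and selected on their RNA levels across these stages and between KO and WT, as earlier results of the same libraries showed them, so all levels and differences are given as a description. Droplet sequencing gave both the RNA and the accessible chromatin (ATAC) of each nucleus. The knockout library (KO) held muscle of Cacna1s-/- fetuses on the C57bl6n background at E18.5, from 26 pooled hindlimbs. The wild-type (WT, C57bl6n) libraries held muscle at E14.5, E18.5, P5 and in the adult, from 56, 14, 8 and 4 pooled hindlimbs, where E is the embryonic and P the postnatal day. The KO lacks the coding region of Cacna1s, the voltage sensor that couples excitation to contraction in muscle, and such fetuses are paralysed and die at birth. Every library was mixed from nuclei sorted as positive and as negative for PCM1, a protein of the myonuclear envelope, so the proportions of cell classes reflect the sort. Each group was 1 library, so there was no replicate error and no test between groups, and every interval given (95%) covers counting error only. The study states more nuclei for the KO than the barcodes listed in its file, and fewer for each WT library than were kept here, so the nuclei compared differ from those of the study. UMIs (unique transcript molecules) of a gene can sit in few nuclei, which makes these intervals narrower than the spread between animals.

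Nuclei in which Ttn, the giant spring protein of the sarcomere, took at least 1% of gene UMIs are called Ttn nuclei. There were 987 of them in KO muscle, and 1867, 1579, 1733 and 4429 in WT muscle at E14.5, E18.5, P5 and in the adult, beside 2241 other nuclei in KO and 2945, 2682, 2014 and 677 in WT. The limit of 1% ran through a continuum: 165 KO nuclei, and 198, 109, 91 and 47 WT nuclei, had 0.5 to 1% Ttn, and 375, and 974, 395, 296 and 25, had 1 to 2%. Ttn nuclei held 10156121 to 19758491 UMIs a library, with medians of 3356 (adult) to 10333 (KO) UMIs a nucleus. All 8 fiber markers checked were present in the Ttn nuclei of every library, at a summed level of 26855 to 88530 CPM (UMIs per 1000000 UMIs of all genes), against 790 to 1679 CPM in the other nuclei. Ttn itself is 1 of the 8 and made up most of each sum, with 20092 CPM at E14.5 and 74820 CPM in the adult. The gap between the sums therefore follows in large part from the selection on Ttn. Cacna1s stood at 0.720 CPM (8 UMIs) in KO Ttn nuclei, against 189 CPM in WT E18.5 Ttn nuclei. Pairs of libraries shared 17 to 47 cell barcodes.

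Membrane collagens cross the plasma membrane with the amino terminus inside the cell and a collagenous ectodomain outside, which proprotein convertases of the furin type can release. In mice, Col25a1 made by muscle is required for motor axons to grow into the muscle, and its protein binds the receptor phosphatases encoded by Ptprs and Ptprd. Col13a1 is concentrated at the neuromuscular junction, where it takes part in maturation of the synapse, and its human gene is mutated in a congenital myasthenic syndrome. Col23a1 has a similar build, can be shed by furin and binds an integrin, and its role in muscle is less well known. Col17a1, the remaining transmembrane collagen and a part of skin hemidesmosomes, was nearly absent, with 3 to 11 UMIs in the Ttn nuclei of each library.

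In the GENCODE annotation of GRCm38, Col25a1 (ENSMUSG00000058897) spans chr3:130131501-130599877 on the plus strand, a body of 468 kb with 6 transcripts. Col13a1 (ENSMUSG00000058806) spans chr10:61838236-61979108 on the minus strand, with 141 kb and 7 transcripts. Col23a1 (ENSMUSG00000063564) spans chr11:51289920-51583918 on the plus strand, with 294 kb and 2 transcripts. Reads in introns were counted, so long genes collect more UMIs, and levels are compared only within a gene. Small annotated features overlap Col25a1 (5 on its own strand) and Col13a1 (1 on the other strand, the pseudogene Gm5750), and whether counting used the strand is not given in the sources used here.

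The promoters are shown because peaks of open chromatin there are described further on, beside peaks spread over the gene bodies. Each sequence is from RefSeq (GRCm38.p6), is written 5′ to 3′ on the strand of the gene, and covers 250 bases before and 50 bases after the RefSeq start. Capitals mark both copies of a repeat in Col25a1, and matches to CACCC or its reverse GGGTG in Col13a1 and Col23a1.
Col25a1, chr3:130180595-130180894 (+): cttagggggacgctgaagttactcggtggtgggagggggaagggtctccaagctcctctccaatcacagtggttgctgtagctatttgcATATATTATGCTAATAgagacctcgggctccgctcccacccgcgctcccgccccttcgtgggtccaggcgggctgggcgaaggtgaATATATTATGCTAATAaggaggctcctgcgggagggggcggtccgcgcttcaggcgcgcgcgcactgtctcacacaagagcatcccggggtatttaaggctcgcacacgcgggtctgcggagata
Col13a1, chr10:61979059-61979358 (-): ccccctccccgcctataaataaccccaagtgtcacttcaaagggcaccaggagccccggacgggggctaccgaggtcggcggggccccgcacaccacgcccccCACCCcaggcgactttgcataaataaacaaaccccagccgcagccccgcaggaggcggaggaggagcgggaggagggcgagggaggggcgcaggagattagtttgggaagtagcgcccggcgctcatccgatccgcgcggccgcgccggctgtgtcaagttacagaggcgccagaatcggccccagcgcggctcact
Col23a1, chr11:51289670-51289969 (+): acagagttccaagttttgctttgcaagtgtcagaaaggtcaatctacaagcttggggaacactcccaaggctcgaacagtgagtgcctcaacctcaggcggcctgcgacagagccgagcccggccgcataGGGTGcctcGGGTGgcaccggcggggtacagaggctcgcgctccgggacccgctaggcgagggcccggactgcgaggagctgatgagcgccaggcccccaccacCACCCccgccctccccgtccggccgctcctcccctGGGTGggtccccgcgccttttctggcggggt

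The Col25a1 promoter holds the run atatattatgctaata, 16 bases long, with copies that begin 161 and 75 bases before the start. Of 32851 RefSeq promoters of this length, 788 (2.40%) hold an exact repeat at least as long, and 1, that of Col25a1, holds these letters. The longest repeat has 8 bases in the promoters of Col13a1 and Col23a1. The TEAD motif CATTCC and the E-box CAGCTG, searched on both strands, had 0 matches in the 3 promoters, and are found in 14.7% and 16.3% of all promoters. CACCC, a core of sites bound by KLF factors, had 1 match in Col25a1 (125 bases before the start), 1 in Col13a1 and 4 in Col23a1, and is found in 57.5% of all promoters. A match is a run of letters and not a mapped site.

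Col25a1 had its highest level in Ttn nuclei of paralysed muscle, and in WT muscle its level was lower at each later stage. It stood at 2758 CPM in KO (30638 UMIs), and at 1226, 538, 166 and 3.04 CPM in WT at E14.5, E18.5, P5 and in the adult (12452, 6817, 2035 and 60 UMIs). The counting intervals of these levels did not overlap, with the KO at 2728 to 2789 CPM and WT E18.5 at 525 to 551 CPM. KO was 5.13-fold higher than WT at E18.5 (interval 4.99 to 5.27), and also above the E14.5 level. In WT, E18.5 was 2.28-fold lower than E14.5 (2.21 to 2.35), P5 was 3.23-fold lower than E18.5 (3.08 to 3.40) and adult was 54.8-fold lower than P5 (42.4 to 72.1). The adult value rested on few UMIs, and its log2 ratio of -5.78 to P5 became -4.77 when CPM was averaged over nuclei in place of summing UMIs.

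Col13a1 stood at a similar level from embryo to pup and at a lower one in the adult. It stood at 72.7 CPM in KO (807 UMIs), and at 67.9, 61.2, 69.0 and 11.2 CPM in WT at E14.5, E18.5, P5 and in the adult (690, 775, 844 and 222 UMIs). The levels before adulthood lay within 61.2 to 72.7 CPM, and neighbouring intervals in this order overlapped, apart from KO against WT E18.5 (67.7 to 77.8 against 56.9 to 65.6 CPM). The ratio of KO to WT was 1.19 (1.08 to 1.31), that of E18.5 to E14.5 was 0.900 (0.811 to 0.999), and that of P5 to E18.5 was 1.13 (1.02 to 1.25). Adult was 6.14-fold lower than P5 (5.29 to 7.16).

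Col23a1 was highest at E18.5, with or without Cacna1s. It stood at 482 CPM in KO (5352 UMIs), and at 40.9, 478.5, 264 and 7.39 CPM in WT at E14.5, E18.5, P5 and in the adult (415, 6064, 3229 and 146 UMIs). KO and WT E18.5 overlapped, at a ratio of 1.01 (0.970 to 1.05), while the WT stages did not overlap with each other. E18.5 was 11.7-fold higher than E14.5 (10.6 to 12.97), P5 was 1.81-fold lower than E18.5 (1.74 to 1.89) and adult was 35.7-fold lower than P5 (30.3 to 42.5).

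**Figure D1:**
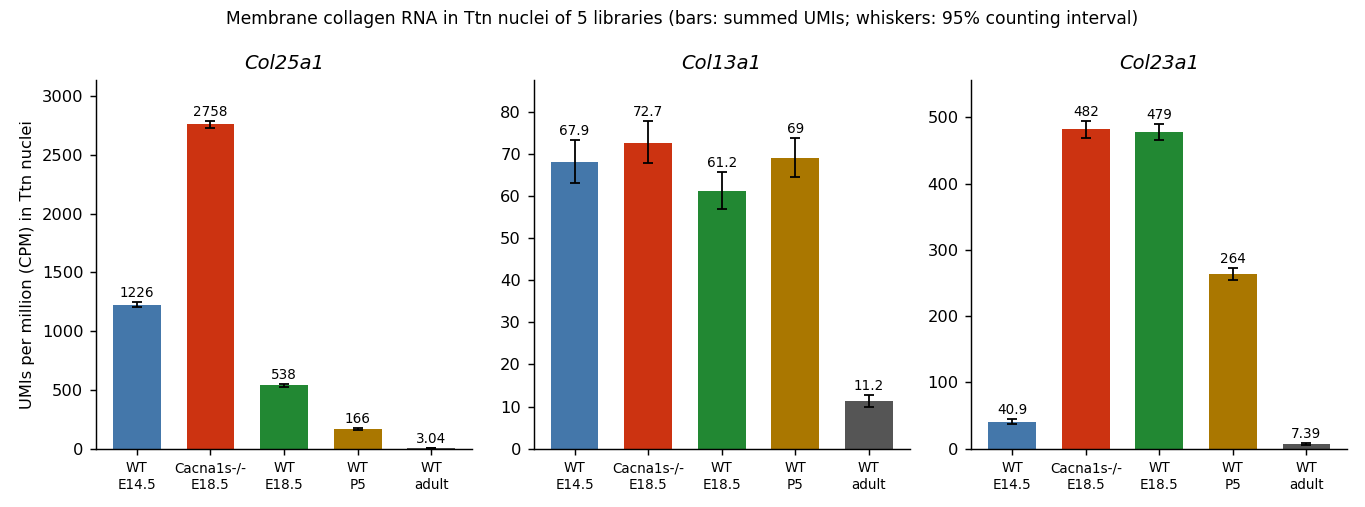
CPM of Col25a1, Col13a1 and Col23a1 (vertical axis, a separate scale for each gene) in the Ttn nuclei of the 5 libraries, as bars of summed UMIs with 95% counting intervals. Col25a1 stands at 2758 CPM in Cacna1s-/- and 538 CPM in WT at E18.5, Col13a1 lies between 61.2 and 72.7 CPM before adulthood, and Col23a1 is at 482 CPM in Cacna1s-/- and 478.5 CPM in WT at E18.5.

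These differences are set beside all genes measured in Ttn nuclei, those with at least 20 UMIs in 1 of both libraries. Between KO and WT E18.5, 6.2% of 14589 genes were at least 2-fold higher and 5.52% at least 2-fold lower, and 1 of the 3 collagens (Col25a1, higher) was among them. Between E18.5 and E14.5, 17.3% of 14560 genes were at least 2-fold higher and 9.94% at least 2-fold lower, with Col23a1 among the higher and Col25a1 among the lower. Between P5 and E18.5, 7.68% of 14528 genes were higher and 21.4% lower by that size, with Col25a1 among the lower, and between adult and P5, 8.31% of 13807 genes were higher and 33.8% lower, with all 3 collagens among the lower. The genes were picked with these contrasts known, so the counts are not a result about them. The median gene differed by -0.03, 0.17, -0.37 and -0.40 on the log2 scale in these comparisons, and relative to it Col25a1 differed by 2.39, -1.35, -1.32 and -5.38. Without the filter on nuclei, which had removed 378 KO barcodes and 125 WT E18.5 barcodes of over 25000 UMIs (161 and 64 of them with Ttn at 1% or more), the log2 ratio of Col25a1 between KO and WT was 2.14, against 2.36 with it.

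RNA of other cells was present in Ttn nuclei to an extent that varied between libraries. The 10 mesenchymal markers, all detected, summed to 588 CPM in KO Ttn nuclei and to 302, 1249, 1291 and 48.6 CPM in WT at E14.5, E18.5, P5 and in the adult, against 2902 to 8588 CPM in other nuclei. The 6 tenocyte markers summed to 21.0 CPM in KO and to 31.0, 86.6, 85.6 and 5.11 CPM in WT, where Scx and Kera were at 0 in the adult. The myocyte markers, 5 of which were measured, summed to 313 CPM in KO and to 241, 186, 46.8 and 5.52 CPM in WT, where Mymk and Mymx were at 0 in the adult. The level of the myocyte markers had the same order as that of Col25a1, and the part that immature nuclei have in the Col25a1 levels was not tested. Without Ttn nuclei that held mesenchymal or tenocyte markers, the log2 ratio of Col25a1 between KO and WT was again 2.36. Raising the Ttn limit to 2% left Col25a1 with a log2 ratio of 2.44 between KO and WT, and moved 2 values by more than 1.5 times, to 4.21 for Col23a1 between E18.5 and E14.5 and to -5.17 for Col25a1 between adult and P5.

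The share of Ttn nuclei with Col25a1 RNA followed its level, and the RNA was unevenly spread among nuclei. To compare shares across depths, each nucleus was thinned to 1000 UMIs in 1 random draw, which left 980 Ttn nuclei in KO and 1829, 1574, 1656 and 3965 in WT. At least 1 UMI of Col25a1 was then found in 48.2% of KO Ttn nuclei, and in 29.3, 13.1, 3.68 and 0.151% of WT Ttn nuclei at E14.5, E18.5, P5 and in the adult (65.5% in KO, and 37.7, 23.7, 8.14 and 0.474% in WT, before thinning). Endothelial-like nuclei, taken as a measure of RNA from outside the nucleus, held Col25a1 after thinning in 3.41% of KO nuclei and in 6.54, 2.61 and 1.08% of WT nuclei at E14.5, E18.5 and P5, with medians of 7950, 3892, 6010 and 5518 UMIs before it. Endothelial-like nuclei were few: their larger cluster held 78 nuclei in KO and 103, 105 and 70 in WT at these stages, before thinning. In the adult, all nuclei under 1% Ttn held Col25a1 in 0.966%, so the adult share in Ttn nuclei did not stand above theirs. Nuclei with 5 or more Col25a1 UMIs after thinning made up 20.5% of KO Ttn nuclei, and 11.0, 4.57, 1.27 and 0.0252% in WT. The median KO Ttn nucleus held 633 CPM and the median WT E18.5 one 0, with 90th percentiles of 7563 and 1129 CPM. The richest nucleus held 1179 Col25a1 UMIs in KO, and 135, 274, 168 and 23 in WT, the last being 23 of the 60 adult UMIs. The richest 10% of nuclei held 55.9% of the KO UMIs and 89.1% of the WT E18.5 UMIs.

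Col13a1 was thinly spread, with no nucleus at 5 or more UMIs after thinning. It was found in 5.92% of KO Ttn nuclei, and in 6.51, 4.64, 5.25 and 0.908% of WT Ttn nuclei at E14.5, E18.5, P5 and in the adult after thinning. The endothelial-like shares of Col13a1 were 3.41% in KO and 1.87, 0.870 and 5.38% in WT at E14.5, E18.5 and P5. The adult share of all nuclei under 1% Ttn was 1.45%. At P5 and in the adult, the shares of Ttn nuclei did not stand above these. Endothelial-like nuclei were few, as given above, so small gaps to their shares are uncertain in either direction. Endothelial-like nuclei stood at 37.3 CPM of Col13a1 at P5. Macrophage-, mesenchymal- and myogenic progenitor-like nuclei stood at 3.83, 5.83 and 7.86 CPM, while chondro-osteogenic-like nuclei stood higher, at 361 CPM. Whether the endothelial-like share reflects RNA from outside or their own was not tested. Col23a1 was found in 29.5% of KO Ttn nuclei, and in 3.34, 27.4, 15.3 and 0.807% of WT Ttn nuclei. Its endothelial-like shares were 1.14% in KO and 10.3, 3.48 and 6.45% in WT, and the adult share outside Ttn nuclei was 1.93%. At E14.5 and in the adult, the shares of Ttn nuclei were below these. Endothelial-like nuclei stood at 125 CPM of Col23a1 at E14.5, against 42.2 CPM in myogenic progenitor-like and 161 CPM in mesenchymal-like nuclei. Whether their shares reflect RNA from outside or their own was not tested. The E14.5 level in Ttn nuclei is the base of the 11.7-fold difference above.

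**Figure D2:**
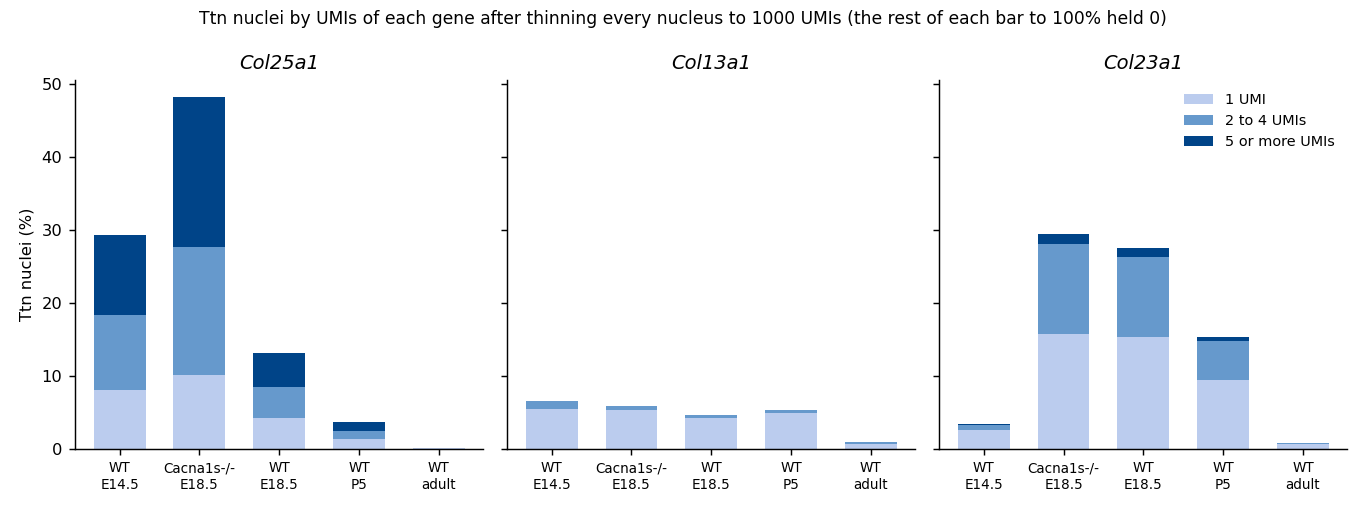
Share of Ttn nuclei (vertical axis, %) with 1, with 2 to 4 and with 5 or more UMIs of each gene after every nucleus was thinned to 1000 UMIs, stacked for the 5 libraries. Col25a1 reaches 48.2% in Cacna1s-/- and 13.1% in WT at E18.5, with 20.5% and 4.57% at 5 or more UMIs, while no nucleus holds 5 or more of Col13a1.

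Ttn nuclei with Col25a1 held the other collagens more often than Ttn nuclei without it, as a description of thinned nuclei of the same library. Among KO Ttn nuclei with Col25a1, 40.7% also held Col23a1, against 19.1% of those without Col25a1. In WT these shares were 7.29 against 1.70% at E14.5, 51.0 against 23.9% at E18.5, and 44.3 against 14.2% at P5. Col13a1 was found in 9.11% of KO Ttn nuclei with Col25a1, against 2.95% of those without, and in WT in 16.4 against 2.40% at E14.5, 16.5 against 2.85% at E18.5, and 19.7 against 4.70% at P5. Col13a1 and Col23a1 overlapped less in WT E18.5, where 30.1% of nuclei with Col13a1 held Col23a1, against 27.3% of those without.

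Ttn nuclei at the synapse were examined next, since 2 of these collagens are known from motor innervation. Synaptic-type nuclei were Ttn nuclei with at least 0.2% of their UMIs, and 2 different genes, from Musk, Chrne, Colq, Ufsp1, Etv5 and Ache, which are transcribed under the junction. Col22a1-high nuclei were those with at least 0.2% Col22a1, the myotendinous collagen. Both are ranges of a score and not cell types. There were 48 synaptic-type nuclei in KO and 191, 74, 76 and 36 in WT, with 149, and 432, 81, 104 and 99, near the limit. In KO and at E14.5, 1 nucleus each was also Col22a1-high and entered neither level. Over all Ttn nuclei, KO and WT E18.5 differed in some genes behind the score. Musk stood at 316.5 CPM in KO against 138 CPM in WT, Ache at 9.36 against 21.0 CPM, and Ufsp1 at 9.36 against 27.3 CPM. The score can therefore select unlike nuclei in KO and WT, and this was not tested.

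Col25a1 was higher in synaptic-type than in other Ttn nuclei of every library, and the gap was narrowest in KO. At E14.5 it stood at 3896 CPM in synaptic-type and 1115 CPM in other Ttn nuclei, a ratio of 3.49. At E18.5 these were 4909 and 365 CPM, a ratio of 13.5, and at P5 2415 and 64.0 CPM, a ratio of 37.8. In the adult they were 208.5 CPM (37 UMIs, found in 11.1% of 36 nuclei) and 1.19 CPM (23 UMIs), a ratio of 175. A single synaptic-type nucleus held 23 of those 37 adult UMIs, and without it the level was 79.6 CPM (14 UMIs) and the ratio 67.0 (31.9 to 136). In KO they were 6361 and 2623 CPM, a ratio of 2.42. With the limit at 0.1% the ratios were 2.28 in KO, and 3.60, 12.4, 45.5 and 131 in WT. At that limit, and without the richest synaptic-type nucleus of each library, the ratios of the adult, 50.03 (23.8 to 101), and of P5, 41.3 (36.9 to 46.3), overlapped.

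The difference between KO and WT was small in synaptic-type nuclei and large outside them. Among synaptic-type nuclei, Col25a1 was 1.30-fold higher in KO (1.23 to 1.37), while in the other Ttn nuclei it was 7.19-fold higher (6.97 to 7.43). The other Ttn nuclei of KO, at 2623 CPM, were below the synaptic-type nuclei of WT E18.5, at 4909 CPM. Of the KO nuclei, 89.4% of the synaptic-type and 64.6% of the other Ttn nuclei held Col25a1, against 83.8% and 21.2% in WT E18.5, without thinning. Between P5 and E18.5 the same split was seen: P5 was 2.03-fold lower in synaptic-type nuclei and 5.70-fold lower in the others. Adult was 11.6-fold lower than P5 in synaptic-type nuclei and 53.8-fold lower in the others. With the limit at 0.1% the others were 30.0-fold lower and the synaptic-type nuclei 10.4-fold lower. Without the richest synaptic-type nucleus of each library, the adult synaptic-type level was 27.0-fold lower than at P5 (16.0 to 49.5). This overlapped the interval of the others (35.6 to 85.5). At the limit of 0.1% it was 24.7-fold lower (14.7 to 45.3), against 19.7 to 47.9 in the others. Without these nuclei, the 2 kinds were therefore not told apart between adult and P5. Between E18.5 and E14.5 the ratio was 1.26 (1.20 to 1.33) in synaptic-type nuclei, and the others were 3.06-fold lower at E18.5. Without either kind of junction nucleus, P5 to E18.5 had a log2 ratio of -2.51, against -1.69 with them.

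Col13a1 in synaptic-type nuclei was not lower in the adult than at P5, while it was low elsewhere in adult fibers. It stood at 288 CPM in KO synaptic-type nuclei against 63.9 CPM in the other KO Ttn nuclei, a ratio of 4.51. In WT it stood at 221 against 61.2 CPM at E14.5, 327 against 51.3 CPM at E18.5, 633 against 44.1 CPM at P5 and 716 against 4.65 CPM in the adult, ratios of 3.62, 6.36, 14.4 and 154. It was found in 80.6% of adult and 81.6% of P5 synaptic-type nuclei, against 1.57% and 17.7% of the other Ttn nuclei. From E18.5 on, the 2 kinds of nuclei parted: P5 was 1.94-fold higher than E18.5 in synaptic-type nuclei (1.60 to 2.35) with a ratio of 0.859 in the others (0.761 to 0.968), and adult to P5 had a ratio of 1.13 in synaptic-type nuclei (0.915 to 1.39), with the others 9.47-fold lower. With the limit at 0.1%, synaptic-type nuclei held 191 CPM in KO, and 568 CPM in the adult against 419 CPM at P5, a ratio of 1.36 (1.11 to 1.65). The ratio of 1.13 over all Ttn nuclei between P5 and E18.5 combined these opposite directions, and without junction nuclei its adult to P5 log2 ratio was -3.24, against -2.62 with them.

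Col23a1 was also higher in synaptic-type than in other Ttn nuclei of every library. It stood at 1552 against 439 CPM in KO, and in WT at 108 against 38.3 CPM at E14.5, 1563 against 443 CPM at E18.5, 789 against 244 CPM at P5 and 254 against 5.17 CPM in the adult. The ratios were 3.53 in KO, and 2.81, 3.53, 3.24 and 49.1 in WT. The adult level in synaptic-type nuclei rested on 45 UMIs, found in 16.7% of 36 nuclei. A single nucleus held 13 of them, and without it the adult ratio was 35.8 (23.2 to 53.7). With the limit at 0.1% and without the richest nucleus it was 27.4 (17.8 to 41.3). KO to WT ratios were 0.993 in synaptic-type nuclei (0.896 to 1.10) and 0.992 in the others (0.953 to 1.03). This equality depended on the limit: at 0.1%, synaptic-type nuclei held 976 CPM in KO and 1308 CPM in WT E18.5, a ratio of 0.746 (0.695 to 0.801), and the others had a ratio of 0.892 (0.854 to 0.933).

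Col22a1-high nuclei were low in all 3 collagens before adulthood. In the 178 of them at E14.5 that were not also synaptic-type, Col25a1 had 4 UMIs (3.76 CPM), against 1115 CPM in other Ttn nuclei, and Col13a1 had 1 UMI (0.939 CPM), against 61.2 CPM. With the limit at 0.1%, Col25a1 stood at 41.3 CPM (114 UMIs) in 434 such nuclei, against 882 CPM in other Ttn nuclei, and Col13a1 at 5.43 against 48.7 CPM. At E18.5 and P5, 36 and 43 such nuclei held Col25a1 at 63.4 and 16.9 CPM and Col23a1 at 52.9 and 87.9 CPM, with 1 UMI of Col13a1 each. The Col25a1 UMIs (18 at E18.5 and 5 at P5) all sat in a single nucleus of each library, 2.78% and 2.33% of these nuclei. They therefore do not describe Col22a1-high nuclei as a group. In the adult, 56 such nuclei had 0 UMIs of Col25a1 and 5 of Col13a1 (21.7 CPM), above the 4.65 CPM of other Ttn nuclei. KO had 5 Col22a1-high nuclei, too few for a level.

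**Figure D3:**
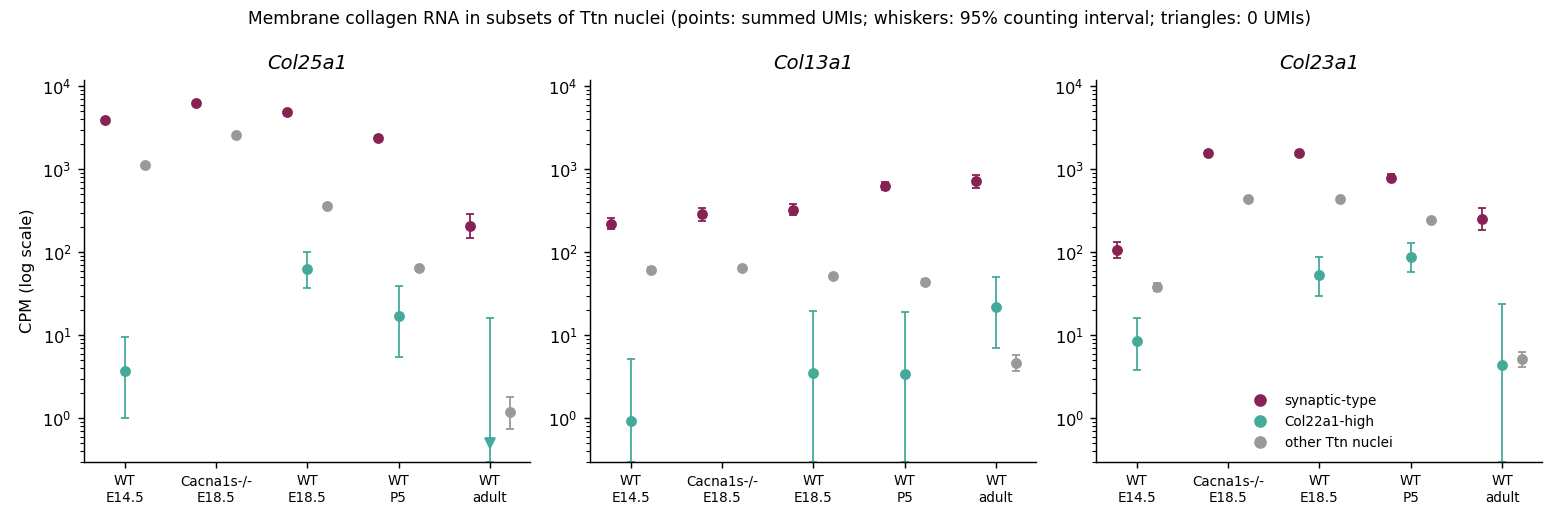
CPM (vertical axis, log scale) of each gene in synaptic-type, Col22a1-high and other Ttn nuclei of the 5 libraries, as points with 95% counting intervals (a triangle marks 0 UMIs). Col25a1 in other Ttn nuclei is at 2623 CPM in Cacna1s-/- and 365 CPM in WT at E18.5, while Col13a1 in synaptic-type nuclei is at 716 CPM in the WT adult and 633 CPM at P5.

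Outside Ttn nuclei, tenocyte-like nuclei were the richest named class in Col25a1 before P5, and chondro-osteogenic-like nuclei at P5. Tenocyte-like nuclei stood at 508 CPM in KO (70 nuclei), and at 1380, 575 and 306 CPM in WT at E14.5, E18.5 and P5 (63, 468 and 280 nuclei). Chondro-osteogenic-like nuclei stood at 514, 346 and 648 CPM in WT at these stages, the last from clusters of 31 and 23 nuclei. Schwann-like nuclei stood at 59.0 CPM in KO and 636 CPM at E14.5, where 44.6% of them held Col25a1 after thinning, and had under 50 nuclei in the other libraries. A pair of myoblast-stage genes, Myog and Mymk, marked 3 clusters that carried no class name and stood at 722 CPM in KO and at 782, 589 and 53.0 CPM in WT. These clusters hold some Ttn, and if all of that Ttn RNA had come from Ttn nuclei, 589 CPM in KO and 359, 102 and 29.9 CPM in WT would be carried along with it. Mesenchymal-like nuclei stood at 72.6 CPM in KO and at 227, 44.7, 24.8 and 1.56 CPM in WT with the adult, and endothelial-like nuclei at 120 CPM in KO and 195, 24.0 and 11.9 CPM in WT. With coarser clusters (Leiden resolution 0.5) Col25a1 stood at 277 and 138 CPM in chondro-osteogenic-like nuclei at E14.5 and E18.5, and at 453 CPM in mesenchymal-like nuclei at E14.5. At P5 the chondro-osteogenic-like class then had under 50 nuclei (clusters of 24 and 23) and no level, so its rank there was not checked.

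The difference in Col25a1 between KO and WT E18.5 varied between classes of nuclei beside fibers. The ratio was 0.883 in tenocyte-like nuclei (0.769 to 1.01), 0.943 in myogenic progenitor-like nuclei (0.710 to 1.26), 0.734 in macrophage-like nuclei (0.501 to 1.08) and 0.647 in smooth muscle and pericyte-like nuclei (0.475 to 0.880). It was 1.22 in the Myog and Mymk clusters (1.14 to 1.32), which held the most Col25a1 UMIs outside Ttn nuclei in KO (2131, against 1118 in WT), and 1.63 in mesenchymal-like nuclei (1.41 to 1.88). Most mesenchymal-like nuclei fell in different clusters in KO and WT, since the cluster led by Gm26871, Nrg1 and Kcnb2 held 501 KO and 48 WT nuclei and the one led by Nrg1, Lvrn and Col6a6 held 118 KO and 739 WT nuclei. In endothelial-like nuclei the ratio was 4.99 (3.07 to 8.51), with 93.3 of the 120 CPM in KO accounted for if their Ttn RNA had come from Ttn nuclei, against 3.82 of 24.0 CPM in WT. The remaining nuclei without a class name stood at 204 CPM in KO (71 nuclei) against 35.7 CPM in WT (165 nuclei), a ratio of 5.71 (3.97 to 8.35), but they fell in different clusters, since the cluster led by Cmah, Mfap5 and Adgrd1 held 163 of the WT nuclei and 11 of the KO nuclei. Ttn nuclei held 89.1% of the Col25a1 UMIs of the KO library, against 65.6% in WT E18.5.

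Col13a1 and Col23a1 had their own places outside fibers. Col13a1 was highest in chondro-osteogenic-like nuclei at P5 (361 CPM) and E18.5 (164 CPM), and in tenocyte-like nuclei, at 180 CPM in KO and at 179, 113 and 116 CPM in WT at E14.5, E18.5 and P5. It was near 0 in Schwann-like nuclei, with 1 UMI in KO and 0 UMIs at E14.5 (a count of 0 allows up to 3 UMIs, here 9.22 CPM), and in mesenchymal-like nuclei, at 7.87 CPM in KO and 1.83 to 8.54 CPM in WT. Col23a1 in mesenchymal-like nuclei stood at 136 CPM in KO and at 161, 35.2, 44.3 and 34.2 CPM in WT at E14.5, E18.5, P5 and in the adult, a KO to WT ratio of 3.85 (3.34 to 4.44) between classes made of different clusters as given above. In tenocyte-like nuclei Col23a1 was 1.89-fold higher in KO (1.40 to 2.51), and Col13a1 1.59-fold higher (1.24 to 2.02).

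**Figure D4:**
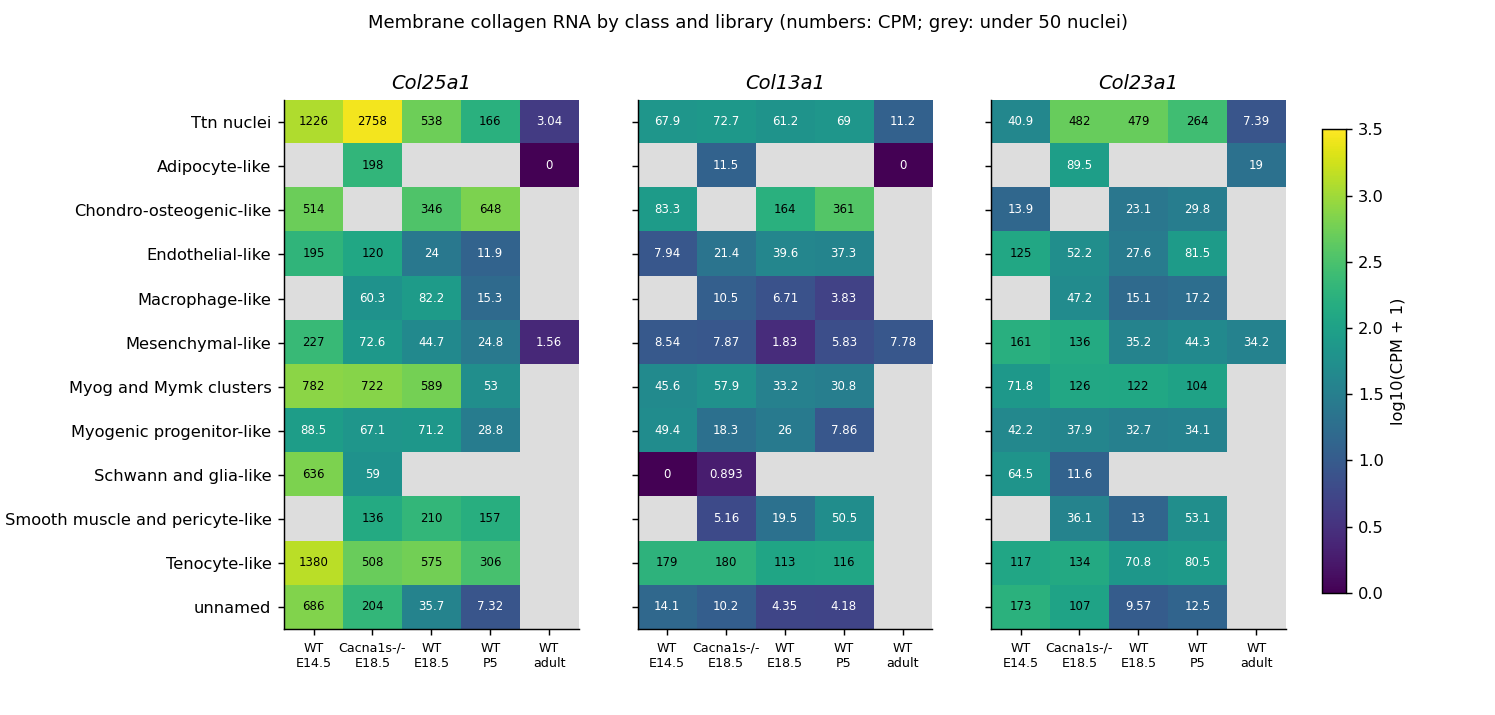
CPM of each gene (number in each cell, colour on a log10(CPM + 1) scale) in the classes of nuclei (rows) of the 5 libraries (columns), with classes under 50 nuclei in grey. Col25a1 is at 1380 CPM in WT E14.5 tenocyte-like nuclei and at 508 CPM in Cacna1s-/- and 575 CPM in WT at E18.5, against 2758 and 538 CPM in Ttn nuclei.

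Across 39 combinations of class and library, which share libraries and depth, the genes with the pattern most like Col25a1 among 14459 were Snap91, Grip1 and Ncam1 (Pearson r = 0.81, 0.81 and 0.81 of log2(CPM + 1)). Those for Col13a1 were Wif1, Kcnk1 and Ptgis (0.78, 0.73 and 0.72), and those for Col23a1 were Rtl1, Fam171a2 and Vwc2 (0.68, 0.67 and 0.66). Between the collagens, r was 0.58 for Col25a1 and Col13a1, 0.51 for Col25a1 and Col23a1, and 0.33 for Col13a1 and Col23a1.

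The partners of these collagens in Ttn nuclei are given as lists, taken from general knowledge. Of 15 genes of synapse assembly measured between KO and WT E18.5, 2 were at least 2-fold higher in KO, namely Musk, the receptor kinase of the synapse (2.30-fold), and Chrna1, an acetylcholine receptor subunit (2.53-fold), and 2 were at least 2-fold lower, namely Ache, the acetylcholine esterase (2.24-fold), and Ufsp1 (2.92-fold). Their median log2 ratio was 0.53, against -0.03 over all genes, of which 6.2% were higher and 5.52% lower by that size. The fetal receptor subunit gene Chrng stood at 141 CPM in KO against 85.1 CPM in WT, and the adult one, Chrne, at 0.810 CPM (9 UMIs) against 1.42 CPM (18 UMIs). Between E18.5 and E14.5, 0 of 15 were higher and 2 lower (Musk and Ache), where 17.3% of all genes were higher and 9.94% lower, and between P5 and E18.5, 1 of 16 was higher (Chrne, 13.2 against 1.42 CPM) and 4 lower (Chrnd, Erbb2, Erbb3 and Chrng, the last at 5.40 against 85.1 CPM), where 7.68% and 21.4% of all genes were. Between adult and P5, 0 of 16 were higher and 12 lower, with a median of -1.74 against -0.40 over all genes, of which 8.31% were higher and 33.8% lower.

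Of 11 receptors and proteases of membrane collagens, 0 were at least 2-fold higher or lower in KO than in WT. Of all genes, 6.2% were higher and 5.52% lower by that size. Ptprs, a receptor for Col25a1, stood at 47.8 CPM in KO against 61.7 CPM in WT E18.5, and Ptprd, the other, at 2903 against 1646 CPM, a ratio of 1.76. Across WT stages, Ptprd stood at 4916, 1646, 2080 and 246 CPM at E14.5, E18.5, P5 and in the adult, and Ptprs at 57.6, 61.7, 70.2 and 91.7 CPM. At E18.5, 2 of the 11 were higher than at E14.5 (the collagen-binding integrins Itga1 and Itga2) and 1 lower (Ptprd). Of all genes, 17.3% were higher and 9.94% lower in this step. At P5, 1 was higher (Itga2) and 1 lower (Ptprf), where 7.68% and 21.4% of all genes were. In the adult, 0 were higher and 9 lower, where 8.31% and 33.8% of all genes were. Itga1 stood at 38.1 CPM in Ttn nuclei and 178 CPM in other nuclei of WT E18.5, and Itga2 at 10.3 and 60.7 CPM. The mesenchymal markers in Ttn nuclei, given above, were also higher at E18.5 than at E14.5 and lower in the adult than at P5, and their part in these changes was not tested.

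Of 12 enzymes and chaperones of collagen folding, 1 was at least 2-fold higher in KO (Colgalt2, 16.1 against 7.18 CPM) and 1 lower (P4ha3, a prolyl hydroxylase subunit, 2.07 against 11.9 CPM). Of all genes, 6.2% were higher and 5.52% lower by that size. At E18.5, 3 were higher than at E14.5 (P4ha3, Plod1 and Crtap) and 0 lower, where 17.3% and 9.94% of all genes were. At P5, 0 were higher and 5 lower, where 7.68% and 21.4% of all genes were. In the adult, 0 were higher and 6 lower, where 8.31% and 33.8% of all genes were. The matrix made by mesenchymal cells uses the same enzymes. Mesenchymal markers in Ttn nuclei were also higher at E18.5 than at E14.5 and lower in the adult than at P5. They were not lower at P5 than at E18.5 (1291 against 1249 CPM), where 5 genes of this list were. In KO they were lower than in WT E18.5 (588 against 1249 CPM), where 1 gene of the list was higher and 1 lower. The part of mesenchymal RNA in these changes was not tested. Of the 4 muscle transcription factors Myog, Klf5, Tead4 and Maf, 0 were past 2-fold in KO, with Myog at 55.9 against 52.5 CPM, Klf5 at 215 against 165 CPM, Tead4 at 205 against 206 CPM and Maf at 49.8 against 83.6 CPM, a ratio of 0.596 (0.537 to 0.661). All of Myog, Klf5 and Tead4 were at least 2-fold lower at P5 than at E18.5, and in the adult than at P5, while Maf stood at 10.9, 83.6, 218 and 705 CPM over the WT stages. The shares of all genes past 2-fold in each comparison, given above for the folding list, apply to these 4 factors as well.

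Open chromatin across Col25a1 was read as peaks, which were called within each library, so a peak not called in one library has no count there and is not a 0. Within the gene and 10000 bases on either side, 20 peaks were called in KO, and 21, 23, 10 and 4 in WT at E14.5, E18.5, P5 and in the adult. They fell into 34 regions, of which 4 had a peak in all 5 libraries and 14 in 1 library. Over the whole genome, 61874 peaks were called in KO, and 65624, 91265, 67013 and 81124 in WT. Of these, 31589 to 31679 a library overlapped a peak in every other library. The 4 shared regions (mm10) were the promoter, chr3:130180232-130181169, an intron 314 kb downstream of the start, chr3:130494415-130495538, an exon at 394 kb, chr3:130574417-130575522, and an intron at 399 kb, chr3:130579223-130580231. The 4 adult peaks were these shared ones. All 10 P5 peaks overlapped E18.5 peaks, as 10 of the 23 peaks at E18.5, and KO and WT E18.5 shared 14, out of 20 and out of 23. Counts of shared peaks were equal when an overlap of 50% of the shorter peak was required.

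ATAC counts of the promoter peak were lower at each later WT stage in Ttn nuclei and higher in KO. It held 35.7 CPM of the ATAC counts (ATAC CPM) in KO Ttn nuclei and 27.1, 19.2, 8.67 and 2.72 in WT Ttn nuclei, against 22.2 in other nuclei of KO and 36.8, 21.8, 14.7 and 6.92 in other nuclei of WT. Ttn nuclei were above the other nuclei at the promoter in KO, with a ratio of 1.61 (1.31 to 1.97), and below them at E14.5, with 0.737 (0.633 to 0.858). The KO to WT ratio at the promoter was 1.86 in Ttn nuclei (1.54 to 2.23) and 1.02 in the others (0.852 to 1.21). The promoter was also open in tenocyte-like nuclei, at 61.1 ATAC CPM in KO (16 counts) and 34.8 in WT E18.5 (156 counts).

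The intron peak at 399 kb set Ttn nuclei apart in every library but the adult. It held 38.1 ATAC CPM in KO Ttn nuclei against 5.89 in other KO nuclei, a ratio of 6.47 (4.72 to 9.04). In WT it held 35.4 against 6.80 at E14.5, 17.6 against 3.85 at E18.5, 8.25 against 1.97 at P5 and 0.880 against 0.752 in the adult, ratios of 5.20, 4.57, 4.19 and 1.17. Tenocyte-like nuclei of WT E18.5 held 2.23 ATAC CPM there (10 counts), so this peak was low in a class in which the promoter was open and Col25a1 RNA was present.

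**Figure D5:**
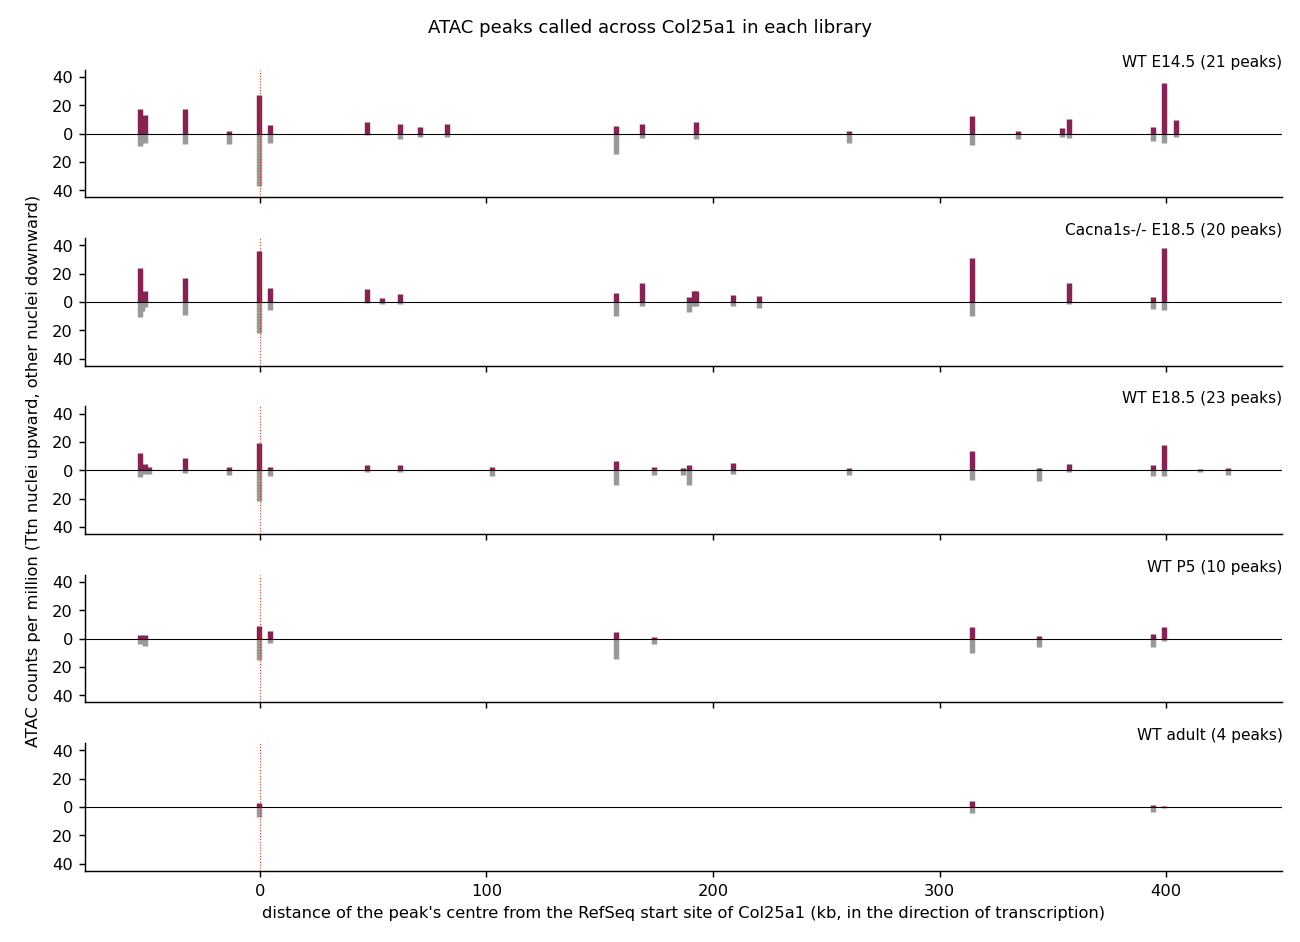
ATAC CPM at each peak called across Col25a1 (bars upward for Ttn nuclei, downward for the other nuclei of the same library) by distance from the RefSeq start in kb, for the 5 libraries. The bar at 399 kb reaches 38.1 in Ttn nuclei of Cacna1s-/- and 17.6 in those of WT at E18.5, and 4 peaks are left in the WT adult.

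Summed over the peaks of each library, Ttn nuclei held 249.9 ATAC CPM in KO (20 peaks over 17096 bases), and 209, 124, 45.8 and 9.06 in WT at E14.5, E18.5, P5 and in the adult (19121, 21490, 8936 and 3304 bases). Per kb of peak this was 14.6 in KO, and 10.9, 5.79, 5.13 and 2.74 in WT. The ratio to the other nuclei of the library was 2.15 in KO (1.98 to 2.34), and 1.47, 1.14, 0.665 and 0.591 in WT, over sets of peaks that differed. Over the 10 regions with a peak both at P5 and at E18.5, the ratio was 0.665 at P5 (0.595 to 0.742) and 1.21 at E18.5 (1.12 to 1.30). Over the 4 regions with a peak in every library it was 2.52 in KO (2.21 to 2.89), and 1.39, 1.47, 0.8596 and 0.591 in WT, where the intervals lay above 1 at E14.5 and E18.5 and below 1 at P5 and in the adult. At least 2-fold higher in Ttn nuclei were 10 of 19 peaks measured in KO, against 17.6% of all peaks of that library, and 9 of 21, 7 of 23, 1 of 10 and 0 of 4 in WT, against 22.5, 18.2, 18.6 and 30.8% of all peaks. At least 2-fold lower in Ttn nuclei were 1 of 19 in KO (20.7% of all peaks), and 3 of 21, 4 of 23, 4 of 10 and 2 of 4 in WT (15.5, 23.6, 22.9 and 25.8%).

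Of the 14 peaks shared by KO and WT E18.5, 5 were at least 2-fold higher in KO Ttn nuclei and 0 at least 2-fold lower, where 4.63% and 4.46% of 53041 shared peaks were. The 5 lay in introns at 4.55 kb (ratio 3.84), 47.5 kb (2.58), 314 kb (2.31), 357 kb (3.03) and 399 kb (2.17). The median ratio over the 14 was 1.87, against 1.07 over all shared peaks. In the other nuclei, the peaks at 4.55, 47.5 and 357 kb had ratios of 1.31 (0.890 to 1.90), 0.509 (0.153 to 1.35) and 1.12 (0.499 to 2.34), and those at 314 and 399 kb had 1.37 (1.03 to 1.80) and 1.53 (1.05 to 2.21). Between E18.5 and E14.5, 5 of 14 shared peaks were at least 2-fold lower, with a median of 0.633 against 0.893 for all (10.9% of all lower), between P5 and E18.5, 3 of 10, with 0.597 against 1.12 (3.35% lower), and between adult and P5, 3 of 4, with 0.347 against 0.767 (24.5% lower). None of these 14, 10 and 4 shared peaks was at least 2-fold higher at the later stage, where 5.03, 9.02 and 2.63% of all shared peaks were. The largest of these was the peak at 399 kb, 9.37-fold lower in adult than in P5 Ttn nuclei.

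Ttn nuclei with Col25a1 RNA held more ATAC counts over its peaks than those without it. Ttn nuclei of KO with Col25a1 RNA (at least 2 UMIs and 0.1% of UMIs, 451 nuclei) held 357 ATAC CPM over its peaks, against 106 in those with 0 UMIs (334 nuclei), a ratio of 3.38 (2.89 to 3.97). The interval of the ratio lay above 1 for 17 of the 20 peaks in KO, and for 13 of 21 at E14.5 and 8 of 23 at E18.5, and it lay below 1 for 0 of them. The promoter held 55.2 against 11.7 ATAC CPM, and the intron peak at 168.5 kb held 69 counts in nuclei with the RNA and 0 in those without. At E14.5 the sums were 313 against 166 (465 and 1137 nuclei, ratio 1.89, 1.72 to 2.06), and at E18.5 189 against 105 (171 and 1200 nuclei, ratio 1.81, 1.59 to 2.05). P5 and adult had under 50 nuclei with the RNA. In KO Ttn nuclei without Col25a1 RNA, the sum of 106 ATAC CPM was close to the 105 of such nuclei in WT E18.5, over peak sets that differed.

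Over the peaks shared by KO and WT E18.5, chromatin at Col13a1 and Col23a1 differed little. KO had 13 peaks at Col13a1 and 19 at Col23a1, and WT E18.5 had 19 and 28. Peaks called in only 1 of these libraries were not compared. KO Ttn nuclei also held fewer ATAC counts in all, 5746384 against 14840430. Col13a1 had 11 shared peaks with 0 past 2-fold and a median ratio of 1.06 in Ttn nuclei, and Col23a1 had 17 with 1 higher, 0 lower and a median of 0.986. Of all shared peaks, 4.63% were at least 2-fold higher and 4.46% lower in KO. The intron peak of Col13a1 at 13.5 kb, chr10:61965082-61966106, was fiber-rich in every library, at 42.8 ATAC CPM in Ttn nuclei against 13.5 in other nuclei of KO, and in WT at 24.5 against 14.3 at E14.5, 38.9 against 6.30 at E18.5, 35.7 against 3.68 at P5 and 15.4 against 0.902 in the adult. This intron was still open in adult Ttn nuclei, where Col13a1 RNA stood at 11.2 CPM. Of 15 peaks of Col23a1 shared by E18.5 and E14.5, 4 were at least 2-fold higher and 2 lower at E18.5 (5.03% and 10.9% of all shared peaks), and the median ratio was 0.911, against 0.893 over all shared peaks. The higher ones included introns at 164 kb, chr11:51453489-51454561 (29.3 against 11.9 ATAC CPM), and 204 kb, chr11:51493941-51494846 (33.6 against 13.8), and the lower ones were an intron at 121 kb (3.30 against 9.04) and an exon at 275 kb (2.09 against 4.61). The Col23a1 promoter held 43.7 against 42.4, a ratio of 1.03 (0.914 to 1.16). Between these stages, at which Col23a1 RNA differed 11.7-fold, its promoter peak did not differ beyond counting error, and peaks of the gene body differed in both directions. Ttn nuclei with Col23a1 RNA held more counts over its peaks than those without, by 1.99-fold in KO (1.75 to 2.26), 1.73-fold at E18.5 (1.60 to 1.86) and 2.08-fold at P5 (1.86 to 2.32).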

How the data were processed

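Nuclei of 5 libraries were read with a multiome kit for RNA and ATAC. The deposited matrices hold raw counts, of UMIs for genes and of ATAC reads for peaks. To make them, the authors ran Cell Ranger ARC (2.0.0) with mm10 (GRCm38), counted intronic reads, called peaks within each library and did not normalize. Kept nuclei had more than 400 and fewer than 25000 UMIs, less than 10% of them mitochondrial, and fewer than 70000 counts in peaks (3228 of 3621 in KO, 4812 of 4990, 4261 of 4435, 3747 of 3848 and 5106 of 5407 in WT at E14.5, E18.5, P5 and in the adult). The members and lists were chosen with earlier results of these data known. Counts were summed over Ttn nuclei, and levels have exact Poisson, ratios exact conditional (Clopper-Pearson) and shares exact binomial 95% intervals. Coverage was checked for the ratio intervals only, on simulated Poisson counts. Those counts hold no uneven spread among nuclei, so the check does not cover it. With 1 library a group no test was made, and past 2-fold is a rule of size. Genes named are the 3 members, Col17a1, the 43 genes of the lists (at most the 3 largest changes each way, and Musk, Chrng, Chrne, Ptprs and Ptprd) and the 3 genes most correlated with each member. All members of a count of 5 or fewer may be named.

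Nuclei under 1% Ttn were clustered with scanpy 1.11.5 (Python 3.11.15, leidenalg 0.10.2, igraph 0.11.9, 3000 variable genes without the members and lists, 30 components, 15 neighbors, resolution 1, no batch correction). Of 31 clusters, 6 stayed unnamed, since a name needed 3 markers in at least 10% of nuclei and no more markers of another class among the top 10 genes. Names are rebuilt here and may differ from those of the study. Doublets were kept, and Scrublet called 376 in KO, 299 and 408 at E14.5 and E18.5, and 0 at P5 and in the adult, where it did not work. Alternatives were other limits on nuclei and Ttn, TMM factors (edgeR 4.0.16 in R 4.3.3), averaging over nuclei, coarser clusters, another UMI minimum, peak overlap and ATAC scaling. Other alternatives were chosen after seeing the data. These left out junction nuclei, nuclei with mesenchymal or tenocyte markers (summed to 0.1% of UMIs or more), or the richest nucleus. Limits of 0.1% for synaptic-type and Col22a1-high nuclei were also chosen then. The study states more KO nuclei than the file lists barcodes, and fewer WT nuclei than were kept here.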

Additional observations from a re-analysis of the deposited data

How the results depend on the processing

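Values are log2 ratios in Ttn nuclei. No ratio of Col25a1, Col13a1 or Col23a1 crossed the 2-fold limit under any alternative, and no called value changed direction. Between KO and WT, Col25a1 (2.36) was 2.14 without the filter on nuclei, 2.42 with at least 400 ATAC counts, 2.24 and 2.44 with Ttn limits of 0.5 and 2%, 2.18 without Scrublet doublets, 2.85 without junction nuclei and 2.29 as a mean over nuclei, and Col23a1 (0.01) was -0.18 without the filter and -0.053 with Ttn at 0.5%. Genes at least 2-fold higher in KO numbered 905 with a minimum of 20 UMIs and 517 with 50.

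Between E18.5 and E14.5, Col25a1 (-1.19) was -1.28 without the filter, -1.27 with 400 ATAC counts, -1.003 with Ttn at 2%, -1.09 without doublets, -1.61 without junction nuclei, -1.30 with TMM and -1.23 without the richest nucleus. Col13a1 (-0.15) was 0.39 with Ttn at 2% and -0.43 as a mean over nuclei. Col23a1 (3.55) was 3.32 and 4.21 with Ttn at 0.5 and 2%, 3.83 without doublets and 3.77 without nuclei with mesenchymal or tenocyte markers.

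Between P5 and E18.5, Col25a1 (-1.69) was -1.54 with 400 ATAC counts, -2.04 with Ttn at 2%, -2.02 without mesenchymal or tenocyte markers, -2.51 without junction nuclei, -1.36 with TMM and -1.99 as a mean over nuclei. Col13a1 (0.17) was -0.22 without junction nuclei and 0.51 with TMM, and Col23a1 (-0.86) was -0.96 with Ttn at 2%, -0.52 with TMM and -0.96 as a mean over nuclei.

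Between adult and P5, Col25a1 (-5.78) was -5.17 with Ttn at 2%, -5.29 with TMM, -4.77 as a mean over nuclei and -6.35 without the richest nucleus. Col13a1 (-2.62) was -3.24 without junction nuclei and -2.13 with TMM, and Col23a1 (-5.16) was -5.56 without junction nuclei and -4.67 with TMM. The cause of these shifts was not tested. TMM factors were 1.20 in KO and 1.10, 1.19, 0.943 and 0.671 in WT.

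Coarser clusters moved 10 of 99 class levels, thinning moved all 15 shares, and ATAC scaling and peak overlap moved 0 of 42 and 0 of 20 values. The doublet alternative was not run for P5 or adult, where 0 doublets were called. No paired analysis was possible because each group is 1 library. Limits of 0.1% for synaptic-type and Col22a1-high nuclei moved 36 of 74 levels and ratios, and leaving out the richest synaptic-type nucleus moved 7 of 27. The adult level of Col25a1 rests on 60 UMIs in Ttn nuclei.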
